A study of Rattus norvegicus with 18 samples.

Results

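The genes Cxcl1, Cxcl2, Cxcl3, Cxcl9, Cxcl10, Cxcl11, Cxcl12, Cxcl16 and Cx3cl1 encode 9 chemokines of the CXC and CX3C families, and their transcripts were followed in cultured rat heart muscle cells. They were chosen by gene symbol, and all 9 were found among the 19880 genes of the deposited table. A filter on low counts left 8 of the 9 for testing, the exception being Cxcl9, which had 19 counts over all libraries. The cells were neonatal rat ventricular cardiomyocytes, taken from Sprague-Dawley rats on postnatal day 2 and preplated to deplete other cell types. All cultures, controls included, had received phenylephrine (PE), an alpha-adrenergic agonist that induces hypertrophic growth, at 20 µM for 24 h. They had been infected with an adenovirus for a short open reading frame, named sORF6, sORF7 or sORF8, or with the control virus of that sORF. The 6 groups of 3 libraries were therefore sORF6, its control, sORF7, its control, sORF8 and its control. The labels give neither the peptide nor the promoter of the sORF viruses, and no uninfected culture was analysed here. Whether replicate libraries are separate cultures is not labelled, so the p-values measure only the spread between libraries, which may be technical.

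Chemokines are small secreted or membrane-bound proteins that guide leukocytes along a gradient through G protein-coupled receptors. Cxcl1, Cxcl2 and Cxcl3 attract neutrophils through Cxcr2 and are classic targets of NF-kB. Cxcl9, Cxcl10 and Cxcl11 attract activated T cells through Cxcr3 and are induced by interferons. Cxcl12 is a largely constitutive chemokine that acts through Cxcr4 and is bound by Ackr3. Cxcl16 and Cx3cl1 (fractalkine) are made as transmembrane proteins and shed by the proteases Adam10 and Adam17. In injured heart, chemokines of these kinds come from resident cells as well as from infiltrating leukocytes.

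Total counts per library ran from 15697177 to 17658137. The cardiomyocyte label fitted its markers, since Actc1, cardiac alpha actin, had 10091 to 16689 FPKM (fragments scaled to transcript length and library size) across the 18 libraries. Markers of other cells were also present: the summed level of 8 cardiac fibroblast markers ran from 1495 to 1782 FPKM, and that of 10 macrophage and leukocyte markers from 72.7 to 102 FPKM. In cultures of mixed cells, fewer cells of a type and less RNA per cell cannot be told apart. Each sORF was compared only with its own control virus by edgeR's quasi-likelihood test, in which a gene was called at a Benjamini-Hochberg adjusted p under 0.05 over 14870 genes. A ± after a level is the SD of 3 libraries, unless another n is given, and for a log2 fold change the ± gives the standard error.

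The genes of 6 chemokines lie in a pair of runs on chromosome 14 of build Rnor_6.0. Cxcl11, Cxcl10 and Cxcl9 span 17195395 to 17233743, a run of 38.3 kb. Cxcl2, Cxcl1 and Cxcl3 span 18731346 to 18839659, a run of 108.3 kb that lies 1.5 Mb from the other. Cxcl12 is on chromosome 4 (149261044 to 149273891), Cxcl16 on chromosome 10 (57059768 to 57070891) and Cx3cl1 on chromosome 19 (10642300 to 10654861). The deposited estimated counts of Cxcl12 and Cxcl16 were whole numbers in 0 of 18 libraries, while those of the other 7 genes were whole in all 18.

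The sequences before the starts of 4 of these genes are shown. Cxcl10 belongs to the interferon-induced group, and Cxcl1 and Cxcl2 belong to the neutrophil group. Each of these fell with sORF6 and rose with sORF7, while Cxcl12 passed the test in no comparison. Each sequence is the 250 bases before the RefSeq start of the gene, 5′ to 3′ on the strand of the gene. Coordinates are of build GRCr8 and differ from those of Rnor_6.0. For Cxcl1 RefSeq has the minus strand of GRCr8, while the deposited table has the plus strand of Rnor_6.0, and the window follows RefSeq. Capitals mark matches, on either strand, to the kB motif GGNNNTTCC (the kind bound by NF-kB), the interferon response motif TTCNNTTTC or the STAT motif TTCNNNGAA, where N is any base.
Cxcl10, chr14:15988816-15989065: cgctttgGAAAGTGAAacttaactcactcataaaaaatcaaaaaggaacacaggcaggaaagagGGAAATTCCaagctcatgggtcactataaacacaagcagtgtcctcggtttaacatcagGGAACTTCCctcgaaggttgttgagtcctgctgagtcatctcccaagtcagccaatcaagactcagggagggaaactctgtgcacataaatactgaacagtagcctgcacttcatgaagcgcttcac (plus strand).
Cxcl1, chr14:17479322-17479571: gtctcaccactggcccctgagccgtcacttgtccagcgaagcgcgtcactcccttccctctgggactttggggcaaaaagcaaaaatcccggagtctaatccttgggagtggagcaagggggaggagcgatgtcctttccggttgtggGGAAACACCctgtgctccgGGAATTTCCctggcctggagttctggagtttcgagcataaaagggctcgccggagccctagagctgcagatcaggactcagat (minus strand).
Cxcl2, chr14:17467256-17467505: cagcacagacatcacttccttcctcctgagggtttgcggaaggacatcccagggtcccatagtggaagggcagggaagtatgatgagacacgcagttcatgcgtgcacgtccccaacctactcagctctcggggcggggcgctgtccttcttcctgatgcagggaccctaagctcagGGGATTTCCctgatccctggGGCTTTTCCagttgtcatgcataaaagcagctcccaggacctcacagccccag (minus strand).
Cxcl12, chr4:152060531-152060780: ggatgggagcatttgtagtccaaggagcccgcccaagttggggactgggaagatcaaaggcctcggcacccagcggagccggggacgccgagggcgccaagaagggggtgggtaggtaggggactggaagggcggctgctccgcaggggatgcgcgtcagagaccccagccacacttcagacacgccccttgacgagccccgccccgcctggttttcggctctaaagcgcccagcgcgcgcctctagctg (plus strand).
In Cxcl10 the kB matches begin 186 and 127 bases before the start, where each site fits the motif on both strands, and the interferon response match begins 243 bases before it. In Cxcl1 the kB matches begin 102 and 83 bases before the start, and in Cxcl2 they begin 73 and 53 bases before it. The Cxcl12 window held no match, which says only that these letters are not in it.

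RefSeq windows of 300 bases, 250 before and 50 after the start, were matched for 8 of the 9 genes, all but Cxcl3. The kB motif stood in 6 of these 8 windows, against 18.3% of 33469 windows of all genes. Besides the genes shown, Cxcl9, Cxcl11 and Cx3cl1 held it, while Cxcl12 and Cxcl16 did not. The interferon response motif stood in 1 of the 8 (Cxcl10), against 9.71% of all windows, and the STAT motif in 2 (Cxcl9 and Cxcl11), against 8.87%. No match overlapped a match of another motif. These matches are descriptions of sequence and not binding sites.

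In the 9 control-virus libraries, Cx3cl1 and Cxcl16 were the most abundant of the 9 transcripts per length and Cxcl9 the least. Cx3cl1 averaged 37.5 ± 5.01 FPKM (SD, n = 9) and Cxcl16 averaged 37.0 ± 1.61 FPKM (SD, n = 9). Their ranges overlapped, and Cx3cl1 was the higher of the pair in 3 of 9 libraries. Cxcl1 came next at 24.1 ± 3.13 FPKM (SD, n = 9), below Cxcl16 in 9 of 9 libraries with no overlap of ranges. Cxcl12 averaged 18.5 ± 1.099 FPKM and Cxcl10 averaged 15.8 ± 7.92 FPKM (SD, n = 9 each). The ranges of Cxcl1 and Cxcl12 overlapped, as did those of Cxcl12 and Cxcl10 and those of Cxcl10 and Cxcl3. Cxcl3 averaged 5.14 ± 0.711 FPKM, Cxcl2 2.44 ± 0.674 FPKM and Cxcl11 1.60 ± 0.460 FPKM (SD, n = 9 each). Cxcl3 stood above Cxcl2 in 9 of 9 libraries without overlap, while the ranges of Cxcl2 and Cxcl11 overlapped. Cxcl9 was at 0 to 0.11 FPKM, which is at most 1 count per control library.

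**Figure D1:**
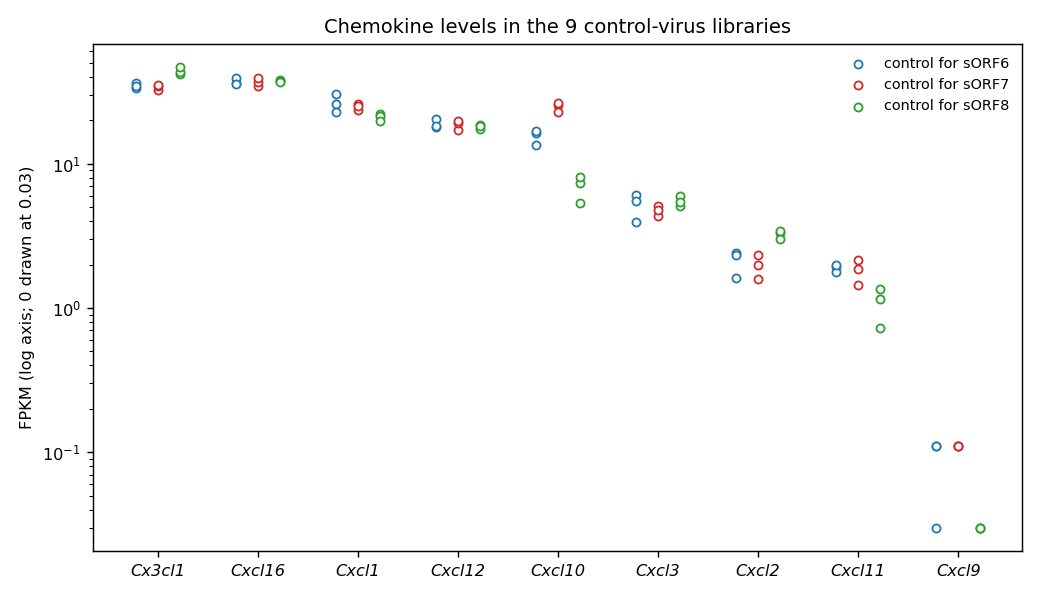
Level of the 9 chemokine genes in the 9 control-virus libraries, in FPKM on a log axis, ordered by mean. Each open circle is a library, coloured by the sORF it served as control for, and a level of 0 is drawn at 0.03. Cxcl10 is the gene whose control groups lie farthest apart, with the sORF8 controls at 5.30 to 8.06 FPKM and the sORF7 controls at 22.8 to 26.3 FPKM.

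The 3 control groups did not start from the same levels. Of the 8 genes tested, 4 differed between them in a joint test, where 38.4% of all genes were called. Cxcl10 had the smallest adjusted p of the 8 (7.78e-08). It was at 7.37, 8.06 and 5.30 FPKM in the sORF8 controls, 25.4, 26.3 and 22.8 FPKM in the sORF7 controls and 16.3, 13.4 and 16.8 FPKM in the sORF6 controls. The sORF8 controls thus stood 3.69-fold below the sORF7 controls. Cx3cl1 ran the other way, with 43.8 ± 2.52 FPKM in the sORF8 controls against 34.7 ± 1.19 FPKM in the sORF6 controls (adjusted p = 2.03e-05). Cxcl11 was lower in the sORF8 controls by a log2 difference of -0.84 from the sORF6 controls (adjusted p = 0.0234), and Cxcl1 by -0.36 (adjusted p = 0.0350). Cxcl2 was 1.60-fold higher in the sORF8 controls than in the sORF7 controls but was not called (adjusted p = 0.101). It was called by DESeq2 (0.0316), by limma on log2(FPKM + 1) (0.00704) and in a fit of the control libraries alone (0.0495). The Cxcl11 call was lost without sORF8 control replicate 1 (adjusted p = 0.153) or 2 (0.0566). The Cxcl1 call was lost without replicate 1 (0.0551) or 2 (0.0632) of the sORF6 controls, or without replicate 1 (0.0601), 2 (0.0829) or 3 (0.172) of the sORF8 controls. Summed cardiomyocyte markers also differed, at 21270 to 21510 FPKM in the sORF8 controls and 27730 to 30270 FPKM in the sORF7 controls, and their part in these differences was not tested. Since every sORF had its own control group, the sORF and the set of cultures cannot be told apart when responses are compared.

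The neutrophil chemokines fell with sORF6 and rose, to a smaller extent, with sORF7 and in part with sORF8. Of all 8 genes tested, sORF6 lowered 6 and raised 0, where 3.85% of all genes were called, and sORF7 raised 6 and lowered 0, where 7.77% were called. With sORF8, 2 were called, both higher, where 3.75% of all genes were called. The median log2 fold change of the 8 genes was -1.30 with sORF6, 0.55 with sORF7 and 0.16 with sORF8, while the median of all genes was 0.00 in each of these comparisons.

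Cxcl1 is the neutrophil chemokine with the highest level in these cells. It was at 5.32, 8.48 and 6.42 FPKM in sORF6 libraries, against 25.9, 30.2 and 22.6 FPKM in their controls. The groups stood far apart, and the log2 fold change was -1.95 ± 0.13, or 3.87-fold lower (adjusted p = 2.19e-08). With sORF7 it was at 35.7, 31.6 and 33.2 FPKM, against 23.6, 25.9 and 25.1 FPKM in controls. All 3 sORF7 libraries were higher than each control, with a log2 fold change of 0.41 ± 0.11 (adjusted p = 0.0229). With sORF8 it was at 28.9, 30.7 and 28.02 FPKM, against 22.1, 21.4 and 19.7 FPKM in controls. These groups were apart as well, with a log2 fold change of 0.48 ± 0.11 (adjusted p = 0.0170). Both of these calls depended on single libraries. The sORF7 call was lost without sORF7 replicate 1 (adjusted p = 0.102) or 3 (0.0555), or control replicate 1 (0.0827) or 3 (0.0542). The sORF8 call was lost without sORF8 replicate 2 (0.0855) or control replicate 2 (0.0524) or 3 (0.0931).

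Cxcl3 showed the same directions with larger folds. It was at 0.72, 1.01 and 0.58 FPKM in sORF6 libraries, against 6.07, 5.55 and 3.96 FPKM in controls. The log2 fold change was -2.73 ± 0.20, a 6.66-fold lower level (adjusted p = 6.16e-08). Cxcl3 was at 9.16, 8.61 and 7.42 FPKM in sORF7 libraries, against 4.34, 5.08 and 4.75 FPKM in controls (log2 fold change 0.81 ± 0.15, adjusted p = 0.00245). It was at 9.99, 10.4 and 8.80 FPKM in sORF8 libraries, against 5.07, 6.0 and 5.42 FPKM in controls (log2 fold change 0.83 ± 0.15, adjusted p = 0.00357). In none of the 3 comparisons did the groups overlap, and the calls held under each alternative analysis tried.

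Cxcl2, the least abundant of the trio, had the largest fold with sORF6. Its counts were 7, 5 and 0 in sORF6 libraries, against 46, 44 and 31 in controls. This was a log2 fold change of -3.28 ± 0.40, or 9.70-fold lower (adjusted p = 2.41e-05). At so few reads the size of the fold is loose: without sORF6 replicate 1 it was 15.3-fold (log2 -3.93, adjusted p = 5.14e-05). With sORF7 Cxcl2 had 103, 96 and 80 counts, against 30, 44 and 38 in controls, a log2 fold change of 1.28 ± 0.27 (adjusted p = 0.00541). With sORF8 it had 80, 97 and 90 counts, against 57, 52 and 58 in controls. Although these groups were apart, the log2 fold change of 0.65 ± 0.26 did not pass the test (adjusted p = 0.203). It did pass in a fit of the sORF8 and sORF8 control libraries alone (adjusted p = 0.0330) and with limma on log2(FPKM + 1) (0.0398).

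**Figure D2:**
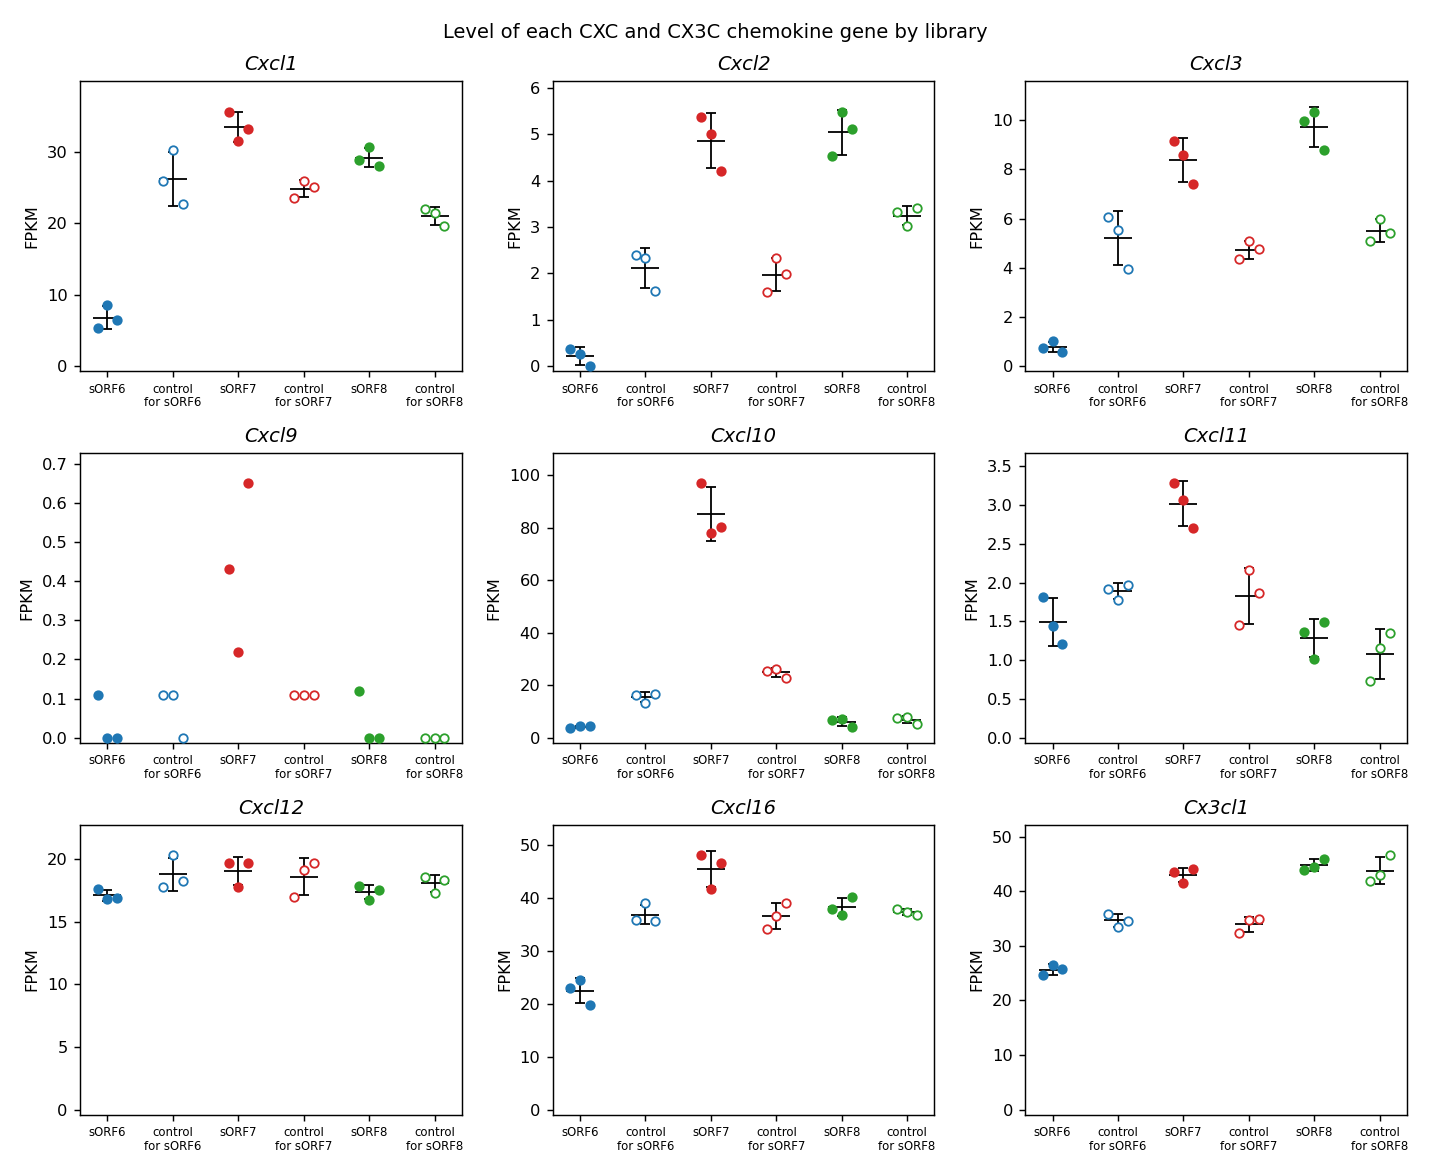
Level of each chemokine gene in all 18 libraries, in FPKM on a linear axis for each gene. Filled circles are sORF libraries, open circles their control-virus libraries to the right, and black bars the mean ± SD of 3 libraries, left out for Cxcl9. Cxcl10 reaches 78.1 to 97.0 FPKM with sORF7 and stands at 3.63 to 4.48 FPKM with sORF6, while Cxcl12 keeps within 16.7 to 20.3 FPKM in all libraries.

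Among the interferon-induced ligands, Cxcl10 was lowered by sORF6 and raised by sORF7, and it was the gene of the 9 with the highest single level. It was at 3.63, 4.31 and 4.48 FPKM in sORF6 libraries, against 16.3, 13.4 and 16.8 FPKM in controls. The log2 fold change was -1.89 ± 0.17, a 3.72-fold lower level (adjusted p = 7.00e-07). With sORF7 it was at 97.0, 78.1 and 80.3 FPKM, against 25.4, 26.3 and 22.8 FPKM in controls. This 3.37-fold rise (log2 fold change 1.75 ± 0.13, adjusted p = 3.57e-07) made Cxcl10 the most abundant of the 9 transcripts in sORF7 libraries. With sORF8 it was at 6.92, 7.26 and 4.15 FPKM, against 7.37, 8.06 and 5.30 FPKM in controls. Those groups overlapped, and the log2 fold change was -0.17 ± 0.19 with a 95% interval of -0.57 to 0.24 (adjusted p = 0.726). Across the 18 libraries the highest level of Cxcl10 was 26.7 times the lowest.

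Cxcl11 and Cxcl9 were far less abundant than their neighbour Cxcl10. Cxcl11 was at 1.82, 1.44 and 1.21 FPKM in sORF6 libraries, against 1.92, 1.77 and 1.97 FPKM in controls. The groups overlapped, and the log2 fold change of -0.33 ± 0.24 did not pass the test (95% interval -0.86 to 0.20, adjusted p = 0.577). With sORF7 Cxcl11 was at 3.28, 3.07 and 2.71 FPKM, against 1.45, 2.16 and 1.87 FPKM in controls. All 3 sORF7 libraries were above the controls, but the log2 fold change of 0.70 ± 0.23 missed the threshold (adjusted p = 0.0759). It passed with limma on log2(FPKM + 1) (adjusted p = 0.0184) or log2(FPKM + 0.1) (0.0493). With sORF8 it was at 1.36, 1.01 and 1.49 FPKM, against 0.73, 1.16 and 1.35 FPKM in controls, with overlap and a log2 fold change of 0.26 ± 0.27 (adjusted p = 0.693).

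Cxcl9 was close to the limit of counting. It had 4, 2 and 6 counts in sORF7 libraries, against 1, 1 and 1 in controls, and these 12 counts were most of its 19. It had 1, 0 and 0 counts in sORF6 libraries, against 1, 1 and 0 in controls. In sORF8 libraries it had 1, 0 and 0 counts, against 0, 0 and 0 in controls, where a count of 0 allows up to 3 counts per library. A Cxcl9 difference with sORF6 or sORF8 was not detectable at this depth.

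The transmembrane chemokines Cx3cl1 and Cxcl16 moved in the same directions as Cxcl10 by much smaller folds. Cx3cl1 was at 24.7, 26.6 and 25.7 FPKM in sORF6 libraries, against 35.9, 33.5 and 34.6 FPKM in controls. It was at 43.6, 41.6 and 44.0 FPKM in sORF7 libraries, against 32.3, 34.7 and 34.9 FPKM in controls. Neither pair of groups overlapped. The log2 fold changes were -0.43 ± 0.05 with sORF6 (1.35-fold lower, adjusted p = 9.42e-06) and 0.33 ± 0.05 with sORF7 (1.253-fold higher, adjusted p = 0.000240). In sORF8 libraries Cx3cl1 was at 44.0, 44.5 and 46.0 FPKM, against 41.8, 43.0 and 46.6 FPKM in controls, which overlapped (log2 fold change 0.04 ± 0.05, adjusted p = 0.734). The 95% interval of that change ran from -0.06 to 0.14.

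Cxcl16, which also serves as a scavenger receptor for oxidised lipoprotein, was at 23.1, 24.6 and 19.9 FPKM in sORF6 libraries, against 35.9, 39.1 and 35.7 FPKM in controls. It fell by 0.70 on the log2 scale (SE 0.07, 1.63-fold lower, adjusted p = 3.48e-06). With sORF7 it was at 48.2, 41.7 and 46.7 FPKM, against 34.2, 36.6 and 39.2 FPKM in controls. The rise was 0.29 ± 0.07 in log2 fold change (adjusted p = 0.0150) with no overlap. That call was lost without sORF7 replicate 1 (adjusted p = 0.0825) or 3 (0.0576) or control replicate 1 (0.0651). In sORF8 libraries Cxcl16 was at 38.0, 36.9 and 40.2 FPKM, against 37.9, 37.3 and 36.8 FPKM in controls, which overlapped (log2 fold change 0.05 ± 0.07, adjusted p = 0.789).

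Cxcl12 varied least of the 9 genes. It was at 17.6, 16.9 and 16.9 FPKM in sORF6 libraries, against 17.8, 20.3 and 18.3 FPKM in controls. The groups stood narrowly apart, and the log2 fold change of -0.16 ± 0.06 did not pass the test (95% interval -0.30 to -0.03, adjusted p = 0.182). With sORF7 it was at 19.7, 17.8 and 19.7 FPKM, against 17.0, 19.2 and 19.7 FPKM in controls (log2 fold change 0.01 ± 0.06, 95% interval -0.12 to 0.14, adjusted p = 0.944). In sORF8 libraries Cxcl12 was at 17.9, 16.7 and 17.6 FPKM, against 18.6, 17.3 and 18.3 FPKM in controls (log2 fold change -0.03 ± 0.06, 95% interval -0.16 to 0.11, adjusted p = 0.880). The groups overlapped in both of these comparisons, and the highest of the 18 levels was 1.22 times the lowest.

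**Figure D3:**
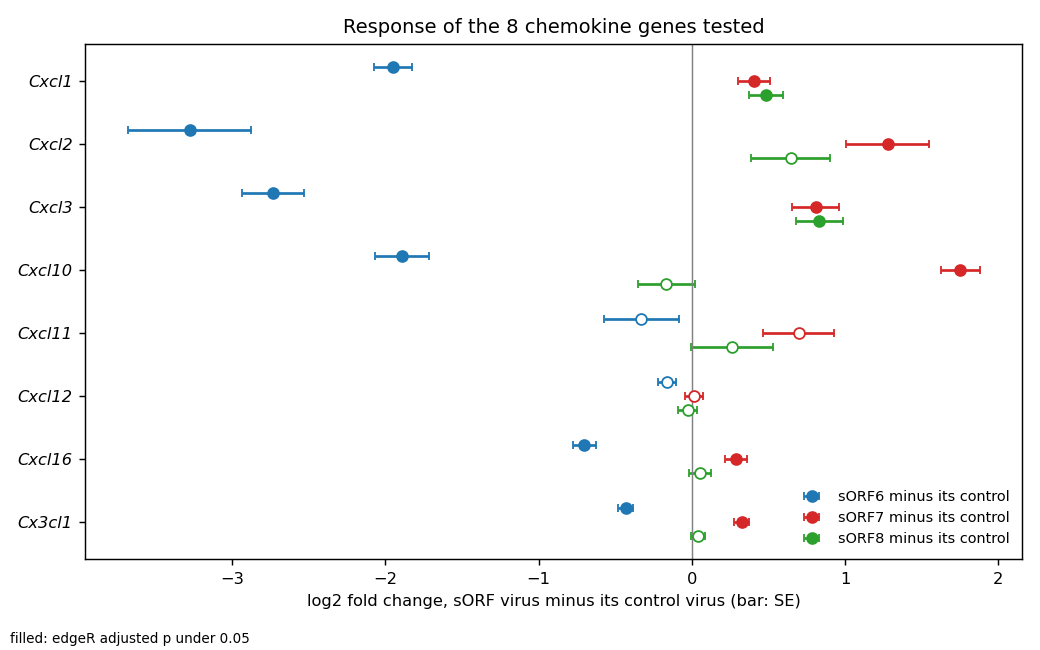
Log2 fold change of the 8 chemokine genes tested, sORF virus minus its control virus, with bars of 1 standard error. Filled circles passed edgeR's test at an adjusted p under 0.05. The sORF6 values run from -3.28 (Cxcl2) to -0.16 (Cxcl12), the sORF7 values from 0.01 (Cxcl12) to 1.75 (Cxcl10) and the sORF8 values from -0.17 (Cxcl10) to 0.83 (Cxcl3).

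The responses to the sORFs were also tested against each other, as differences of log2 fold changes. The sORF7 response minus the sORF6 response was called for 6 of the 8 genes, where 11.2% of all genes were called. It was 4.56 ± 0.48 for Cxcl2, 3.65 ± 0.22 for Cxcl10 and 3.54 ± 0.26 for Cxcl3. It was smaller for Cxcl1 (2.36 ± 0.17), Cxcl16 (0.99 ± 0.10) and Cx3cl1 (0.76 ± 0.07). For Cxcl11 the difference was 1.03 ± 0.34 (adjusted p = 0.0561), which passed without sORF6 replicate 1 (0.0453) or sORF7 control replicate 2 (0.0464). The sORF8 response minus the sORF6 response was called for the same 6 genes, where 3.69% of all genes were called. Its values ran from 0.47 ± 0.07 for Cx3cl1 to 3.92 ± 0.48 for Cxcl2. The Cxcl2 differences again varied with sORF6 replicate 1, reaching 5.21 against sORF7 and 4.58 against sORF8 without it.

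The sORF8 response minus the sORF7 response was called for 2 of the 8 genes, where 7.72% of all genes were called: Cxcl10 (-1.92 ± 0.23, adjusted p = 2.64e-05) and Cx3cl1 (-0.28 ± 0.07, adjusted p = 0.0128). In both genes the response to sORF8 was the lower. For the neutrophil chemokines the difference was 0.08 ± 0.15 for Cxcl1 (95% interval -0.26 to 0.41), 0.03 ± 0.22 for Cxcl3 (-0.45 to 0.50) and -0.63 ± 0.37 for Cxcl2 (-1.44 to 0.18). These did not pass the test (adjusted p = 0.829, 0.966 and 0.347), and the intervals leave room for differences of up to 1.44 in log2 fold change. For Cxcl16 it was -0.24 ± 0.10 (adjusted p = 0.166).

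Summing the levels gives the size of each ligand group. Cxcl1, Cxcl2 and Cxcl3 together came to 7.72 ± 1.78 FPKM with sORF6 against 33.6 ± 4.97 in controls, 46.7 ± 2.99 with sORF7 against 31.6 ± 1.92, and 44.0 ± 2.37 with sORF8 against 29.8 ± 1.11. Cxcl9, Cxcl10 and Cxcl11 together came to 5.67 ± 0.0971 FPKM with sORF6 against 17.5 ± 1.91 in controls, 88.6 ± 10.5 with sORF7 against 26.8 ± 1.90, and 7.44 ± 1.56 with sORF8 against 7.99 ± 1.29. The neutrophil sum was thus apart from its controls with all 3 sORFs, and the interferon-induced sum with sORF6 and sORF7. The neutrophil sum is mostly Cxcl1 and the interferon-induced sum mostly Cxcl10. Cxcl10 alone was at 85.1 ± 10.3 FPKM with sORF7 and 15.5 ± 1.85 FPKM in the sORF6 controls, while Cxcl11 was called with neither sORF6 nor sORF7. All 9 genes summed to 78.7 ± 4.36 FPKM with sORF6 against 141 ± 5.36 in controls, 243 ± 17.7 with sORF7 against 148 ± 6.64, and 152 ± 0.907 with sORF8 against 137 ± 0.173.

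The ratio of Cxcl10 to Cxcl1, both in FPKM, gives the balance of these groups library by library. It was 0.682, 0.508 and 0.698 with sORF6, against 0.630, 0.443 and 0.741 in controls. Those groups overlapped, and the genes fell by 3.72-fold and 3.87-fold. With sORF7 the ratio was 2.72, 2.47 and 2.42, against 1.08, 1.02 and 0.908 in controls. With sORF8 it was 0.240, 0.236 and 0.148, against 0.334, 0.377 and 0.269 in controls. The sORF7 libraries were all above and the sORF8 libraries all below their controls. Of the summed level, Cx3cl1 and Cxcl16 made up 61.2% ± 0.566 with sORF6 against 50.6% ± 1.15 in controls, and 36.5% ± 1.496 with sORF7 against 47.8% ± 1.247 in controls.

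**Figure D4:**
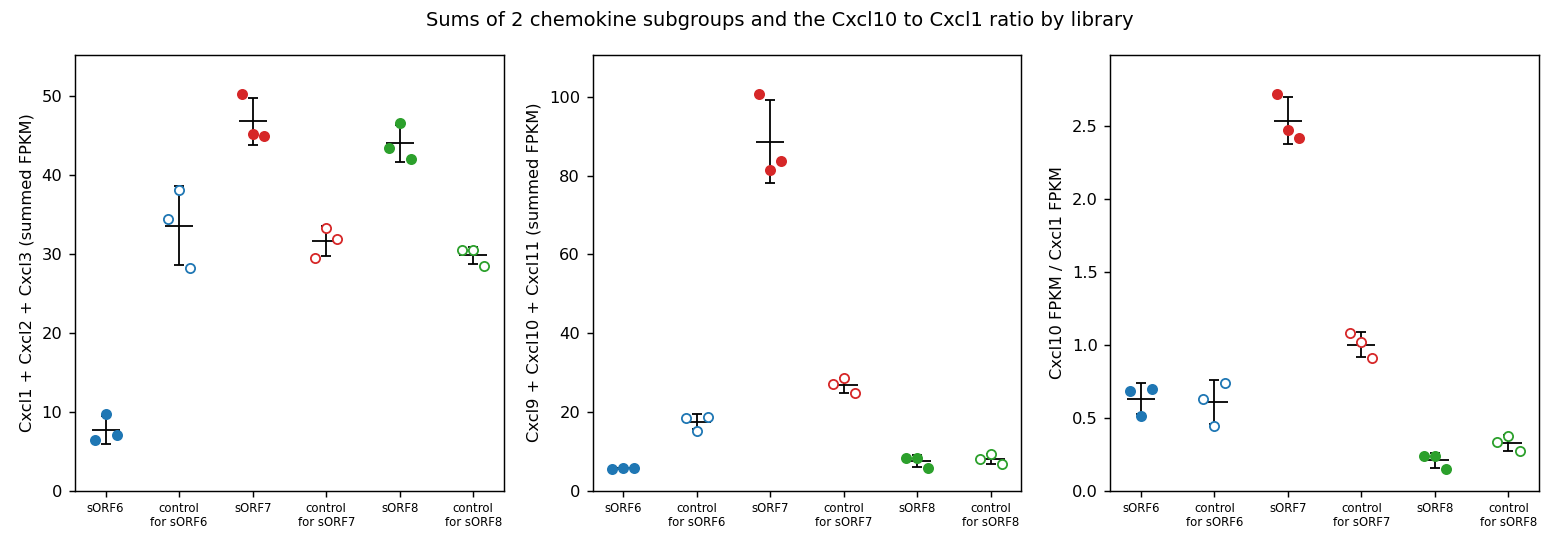
Summed FPKM of the neutrophil chemokines, summed FPKM of the interferon-induced chemokines, and the ratio of Cxcl10 to Cxcl1, for each library. Filled circles are sORF libraries, open circles their controls to the right, and black bars the mean ± SD of 3 libraries. The ratio is 2.42 to 2.72 in sORF7 libraries and 0.908 to 1.08 in their controls.

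Further ligands, receptors, proteases and signalling genes were examined as lists, whose counts stand beside 3.85% of all genes called with sORF6, 7.77% with sORF7 and 3.75% with sORF8. Of 4 other ligands tested, Cxcl6, another neutrophil-attracting CXC chemokine, fell with sORF6. It had 5, 8 and 7 counts in sORF6 libraries, against 42, 37 and 26 in controls (log2 fold change -2.36 ± 0.34, adjusted p = 0.000173). Cxcl13, a B cell attractant, had 30, 24 and 20 counts with sORF7, against 9, 8 and 11 in controls (1.35 ± 0.34, adjusted p = 0.0177). That call was lost without sORF7 replicate 1 (0.0820) or control replicate 1 (0.0560) or 2 (0.0674), with a replicate block (0.0552) and in a fit of the sORF7 and sORF7 control libraries alone (0.0533). Pf4 and Cxcl17 were called in none of the 3 comparisons, and no ligand of this list was called with sORF8 by edgeR, DESeq2 or limma, or at an unadjusted p under 0.05.

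Of 7 receptors examined, those of Cxcl12 passed the filter on low counts. Cxcr4 ran from 3.36 to 7.30 FPKM over the 18 libraries and Ackr3 from 2.37 to 4.59 FPKM. Neither was called with any sORF by edgeR, DESeq2 or limma, and 1 passed at an unadjusted p under 0.05 (Ackr3 with sORF6, -0.42 ± 0.14, adjusted p = 0.124). Cxcr4 also differed between the control groups (adjusted p = 3.83e-06), with 6.96 ± 0.307 FPKM in the sORF8 controls against 3.65 ± 0.403 FPKM in the sORF7 controls. Cxcr2, the receptor of the neutrophil chemokines, had 11 counts over all 18 libraries, and Cxcr3, that of Cxcl9, Cxcl10 and Cxcl11, had 9. Cxcr6, the receptor of Cxcl16, had 4 counts and Cx3cr1, that of Cx3cl1, had 9. Each of these had at most 3 counts in a library, so a change in them was not detectable at this depth.

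Of 7 proteases that cut or shed chemokines, 2 were lower with sORF6, 1 was higher and 1 lower with sORF7, and 1 was higher with sORF8, with list medians of 0.06, 0.01 and 0.04. Adam17 fell by 0.21 on the log2 scale with sORF6 (SE 0.04, adjusted p = 0.00453) and rose by 0.19 ± 0.04 with sORF7 (adjusted p = 0.00676). In fits of the libraries compared alone both of these calls were lost (adjusted p = 0.0812 with sORF6 and 0.0700 with sORF7). Adam10, the other shedding protease, had log2 fold changes of -0.01 ± 0.05, 0.01 ± 0.05 and 0.09 ± 0.05 with sORF6, sORF7 and sORF8, none called. Dpp4, which trims Cxcl10 and Cxcl12 at the amino end, was lower with sORF7 (-0.88 ± 0.16, adjusted p = 0.00197). Mmp9, a gelatinase, was lower with sORF6 (-1.45 ± 0.17, adjusted p = 1.21e-05) and higher with sORF8 (0.61 ± 0.15, adjusted p = 0.0288). The sORF8 call was lost on leaving out sORF8 replicate 1 (0.132) or 2 (0.115) or control replicate 1 (0.0615), 2 (0.0816) or 3 (0.119), and with a replicate block (0.0530).

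Cytokines that induce these chemokines moved in the same directions in part. Of 5 tested, 4 fell with sORF6, 2 rose with sORF7 and 1 rose with sORF8, with list medians of -2.13, 1.09 and 0.39. Tnf, tumour necrosis factor, had 4, 7 and 7 counts with sORF6, against 33, 27 and 27 in controls (log2 fold change -2.23 ± 0.29, adjusted p = 4.29e-05). It had 92, 96 and 69 counts with sORF7, against 28, 32 and 31 in controls (1.46 ± 0.21, adjusted p = 0.000231). Il1b, interleukin 1 beta, fell with sORF6 (-2.13 ± 0.22, adjusted p = 3.48e-06) and rose with sORF7 (0.75 ± 0.18, adjusted p = 0.0142) and sORF8 (0.89 ± 0.19, adjusted p = 0.00930). Its sORF7 call was lost without sORF7 replicate 2 (0.0743) or control replicate 3 (0.0621), and in a fit of the sORF7 and sORF7 control libraries alone (0.0580). DESeq2 gave Il1b no adjusted p with sORF8. Il1a fell with sORF6 (-3.15 ± 0.50, adjusted p = 0.000523). With sORF7 Il1a had a log2 fold change of 1.09 ± 0.34 (adjusted p = 0.0551), which passed with DESeq2 (0.0181) and with limma on log2(FPKM + 1) (0.00893). For sORF7 DESeq2 called 3 of the 5 cytokines and limma 4. Ifnb1, interferon beta, had 12 counts over all 18 libraries.

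Genes of the signalling routes to these chemokines were examined in the same way. Of 18 interferon genes, 9 fell with sORF6, 8 rose with sORF7 and 0 were called with sORF8. For sORF8, 3 passed at an unadjusted p under 0.05, and DESeq2 and limma called 0. Irf7, a transcription factor of the interferon response, had log2 fold changes of -3.19 ± 0.23 with sORF6 (adjusted p = 4.70e-08) and 1.201 ± 0.17 with sORF7 (adjusted p = 0.000162). Irf9 (-1.60 ± 0.12) and Ddx58, the RNA sensor RIG-I (-2.33 ± 0.18), fell with sORF6. Irf1 (0.67 ± 0.09) and Stat2 (0.70 ± 0.10), both activators of interferon-induced genes, rose with sORF7. The median log2 fold changes of the list were -0.26, 0.11 and 0.07 with sORF6, sORF7 and sORF8.

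The list drawn as NF-kB and MAPK routes held 17 genes, among which Map3k7 was the only kinase of the MAPK cascade. Of these 17, 5 fell with sORF6, 4 rose with sORF7 and 1 rose with sORF8. For sORF8 this is 5.88% of the list against 3.75% of all genes. The feedback inhibitors Tnfaip3 (-0.68 ± 0.07, adjusted p = 2.32e-06) and Nfkbia (-0.54 ± 0.07, adjusted p = 5.86e-05) and the NF-kB cofactor Nfkbiz (-0.64 ± 0.07, adjusted p = 5.78e-06) fell with sORF6. Myd88, an adaptor of Toll-like receptors, rose with sORF7 (0.40 ± 0.07, adjusted p = 0.00160), as did Nfkbiz (0.35 ± 0.07, adjusted p = 0.00263). Tnfaip3 rose with sORF7 (0.25 ± 0.07, adjusted p = 0.0224), but not without sORF7 replicate 1 (0.0577) or 2 (0.0856) or control replicate 2 (0.0674) or 3 (0.0712), with a replicate block (0.0561) or in a fit of the sORF7 and sORF7 control libraries alone (0.0530). Nfkb1 rose with sORF8 (0.19 ± 0.04, adjusted p = 0.0192), but not without sORF8 replicate 1 (0.0582), 2 (0.0661) or 3 (0.0623) or control replicate 1 (0.0892) or 3 (0.0860). The list medians were -0.08, 0.12 and 0.01 with sORF6, sORF7 and sORF8.

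Among 8 regulators of chemokine mRNA decay was Zc3h12a (regnase-1), an RNase whose gene is itself induced by inflammatory signals. It fell with sORF6 (-0.64 ± 0.07, adjusted p = 2.35e-06) and rose with sORF7 (0.30 ± 0.06, adjusted p = 0.00441). Zfp36l1, which destabilises AU-rich mRNA, was lower with sORF7 (-0.14 ± 0.04, adjusted p = 0.0374), but the call was lost without sORF7 replicate 1 (0.164) or 3 (0.177) or control replicate 1 (0.0975), 2 (0.10004) or 3 (0.0702), by limma on log2(FPKM + 1) (0.0651) and in a fit of the sORF7 and sORF7 control libraries alone (0.212). The other regulators of this list were not called with sORF6 or sORF7. With sORF8, edgeR, DESeq2 and limma called 0 of the 8, with 2 at an unadjusted p under 0.05. Of 5 hypoxia regulators linked to Cxcl12, edgeR called 0 with any sORF, limma called 0 and DESeq2 called 1, with sORF8. At an unadjusted p under 0.05, 1 passed with sORF6, 0 with sORF7 and 1 with sORF8.

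**Figure D5:**
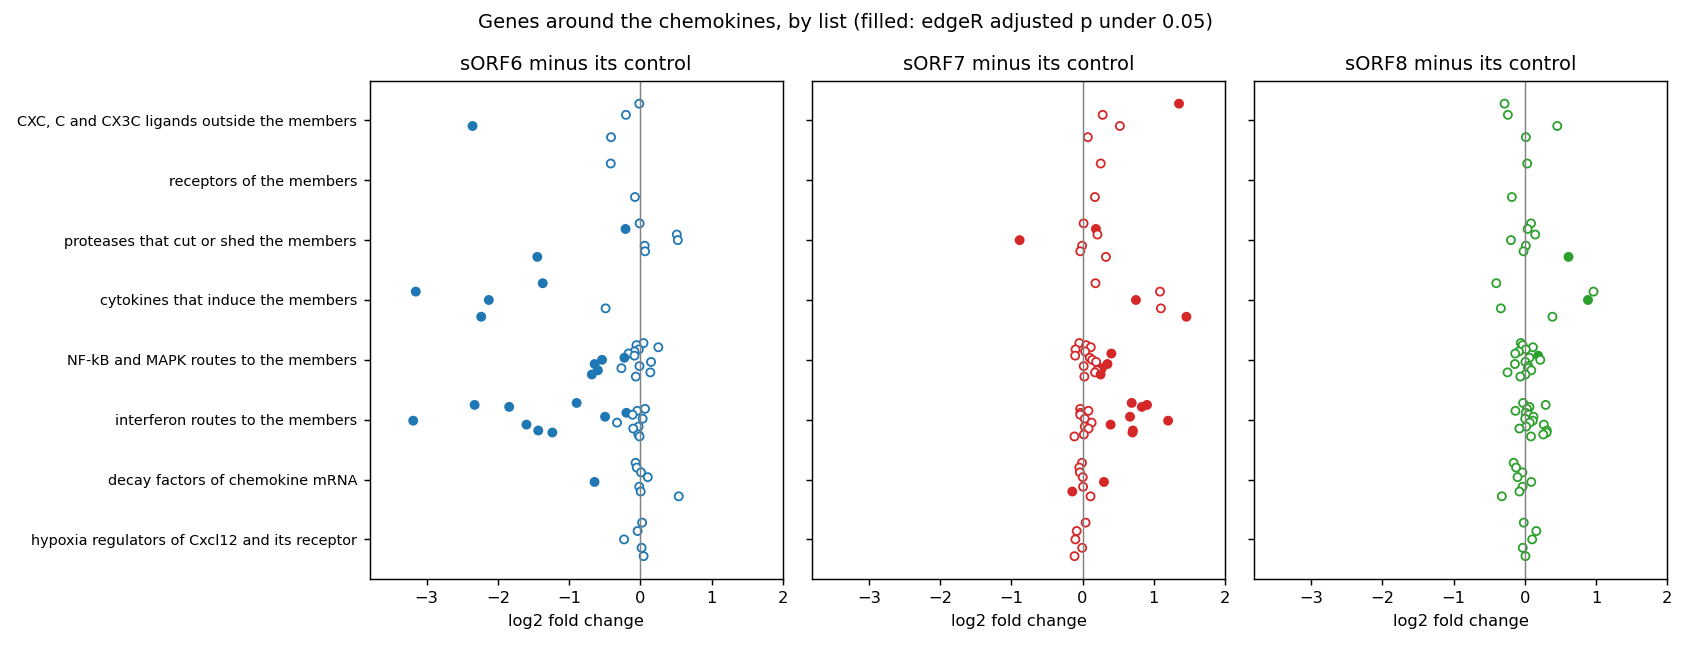
Log2 fold change of the genes in 8 lists around the chemokines, 1 circle a gene, in a panel for each sORF against its control. Filled circles passed edgeR's test at an adjusted p under 0.05, and the members named on the axis are the 9 chemokines. In the interferon list 9 genes are filled below 0 with sORF6, 8 above 0 with sORF7 and 0 with sORF8.

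Genes with the most similar responses were sought for each chemokine among 11661 candidates (genes whose log2 CPM averaged 1 or more), by the largest of the 3 differences in log2 fold change. Cxcl2 was nearest to Ccl4, a chemokine of the CC family, at a distance of 0.05. Ccl4 had log2 fold changes of -3.33, 1.33 and 0.60 with sORF6, sORF7 and sORF8. Cxcl3 was nearest to Cxcl6 (distance 0.38) and Ccl3 (0.39), and Cxcl1 to MGC105567 (0.25) and Ccl2 (0.26). Cxcl10 was nearest to RT1-T24-3 (0.35) and Ddx60 (0.48), so no candidate matched Cxcl10 or Cxcl3 closely. Cxcl16 was nearest to Lonrf3 (0.04) and Tnfaip3 (0.04), and Cx3cl1 to Cmtr1 (0.03) and Zfp385d (0.03). Cxcl11 was close to Adra2a (0.11), and Cxcl12, which hardly moved, was nearest to Ets2 (0.01) and Rpp30 (0.01). The likeness rests on 3 comparisons only.

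Levels of cell type markers were measured beside these results. Counts of markers called stand beside 3.85% of all genes called with sORF6, 7.77% with sORF7 and 3.75% with sORF8. The summed level of 10 macrophage and leukocyte markers was 83.1 to 91.6 FPKM with sORF6, against 85.2 to 101 FPKM in controls. It was 72.7 to 81.5 FPKM with sORF7, against 75.9 to 87.7 FPKM in controls, and 87.6 to 102 FPKM with sORF8, against 84.1 to 92.6 FPKM in controls. The ranges overlapped in each case. The median log2 fold changes of the 9 markers tested were -0.28, -0.05 and 0.07 with sORF6, sORF7 and sORF8. Of these 9, the macrophage genes Adgre1 (-0.61 ± 0.10) and Itgam (-0.83 ± 0.17) were called with sORF6, both lower. At an unadjusted p under 0.05, 6 of the 9 passed with sORF6, in mixed directions. Among them Cd14 was lower (-0.50 ± 0.15, adjusted p = 0.0845) and Csf1r higher (0.29 ± 0.13, adjusted p = 0.290). Csf1r (-0.49 ± 0.14) and Lyz2 (-0.36 ± 0.10) were called with sORF7, both lower, where the chemokines rose. By limma on log2(FPKM + 1) neither passed with sORF7 (adjusted p = 0.0712 for Csf1r and 0.0564 for Lyz2). The Csf1r call was also lost without sORF7 replicate 2 (0.112) or 3 (0.163) or control replicate 1 (0.135) or 3 (0.0804). The Lyz2 call was lost without sORF7 replicate 2 (0.166) or 3 (0.0789) or control replicate 2 (0.152) or 3 (0.117), and with a replicate block (0.0634). In a fit of the sORF7 and sORF7 control libraries alone neither passed (0.118 for Csf1r and 0.0918 for Lyz2). With sORF8 edgeR called 0, limma 0 and DESeq2 1, and 2 passed at an unadjusted p under 0.05. Cd79b, a B cell marker, was at 0 in 4 of 18 libraries. Of 7 endothelial markers tested, edgeR, DESeq2 and limma called 0 with each sORF, and at an unadjusted p under 0.05 there were 2 with sORF6, 1 with sORF7 and 1 with sORF8.

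The summed levels of other markers stood apart between groups in several comparisons. Counts called again stand beside 3.85%, 7.77% and 3.75% of all genes with sORF6, sORF7 and sORF8. The sum of 8 cardiomyocyte markers was 31390 to 31710 FPKM with sORF6, against 27930 to 31990 FPKM in controls, which overlapped. It was 25850 to 26530 FPKM with sORF7, against 27730 to 30270 FPKM in controls, and 25100 to 25210 FPKM with sORF8, against 21270 to 21510 FPKM in controls. The sORF7 libraries were thus below and the sORF8 libraries above their controls. The largest part of this sum was Actc1, which edgeR called with sORF8 (adjusted p = 0.0319) but not with sORF7 (0.0529). The median log2 fold changes of the list were 0.09, -0.15 and 0.24 with sORF6, sORF7 and sORF8. Of the 8, 2 were called higher and 1 lower with sORF6, 2 lower with sORF7 (DESeq2 called 4) and 4 higher with sORF8, among them Myh6, alpha myosin heavy chain, with sORF8 (0.80 ± 0.07). The sum of 8 fibroblast markers was 1685 to 1782 FPKM with sORF6, against 1539 to 1676 FPKM in controls, which stood apart. It was 1495 to 1574 FPKM with sORF7, against 1543 to 1697 FPKM in controls, and 1544 to 1618 FPKM with sORF8, against 1543 to 1577 FPKM in controls. The last 2 comparisons overlapped, and 1 marker was called higher and 1 lower with sORF6 and 3 lower with sORF7. With sORF8 edgeR, DESeq2 and limma called 0, and 0 passed at an unadjusted p under 0.05. The largest part of the fibroblast sum was Col1a1, at 968 ± 22.05 FPKM with sORF6 against 883 ± 59.85 FPKM in controls. EdgeR did not call Col1a1 with sORF6 (adjusted p = 0.0872), and the median log2 fold change of the list was 0.07. The sum of 7 smooth muscle and pericyte markers was 1829 to 1929 FPKM with sORF6, against 1969 to 2079 FPKM in controls, and 1729 to 1853 FPKM with sORF8, against 1632 to 1691 FPKM in controls. This sum was lower with sORF6 and higher with sORF8 without overlap. Its largest part was Acta2, the 1 marker of the 7 that edgeR called with each. Acta2 had log2 fold changes of -0.15 ± 0.04 with sORF6 (adjusted p = 0.0490) and 0.22 ± 0.04 with sORF8 (adjusted p = 0.00552). With sORF6 DESeq2 called 2 of the 7 and limma 0. The list medians were 0.05 with sORF6 and 0.04 with sORF8, so the sums do not stand for most of the list. The sum of 8 endothelial markers was 120 to 125 FPKM with sORF6, against 112 to 117 FPKM in controls, and these groups were apart. Most of the endothelial sum was Eng, at 113 ± 3.12 FPKM with sORF6 against 104 ± 2.12 FPKM in controls. With sORF6 the median log2 fold change of the 7 endothelial markers tested was -0.12, and edgeR called 0. The part of these cell types in the chemokine levels was not tested.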

How the data were processed

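RNA sequencing of 18 libraries in 6 groups of 3 was analysed, with groups and replicate numbers from the sample titles. The authors deposited estimated counts and FPKM per gene and library. Per the submitters' processing notes, HISAT2 2.0.4, RSEM 1.2.12 and DESeq2 1.4.5 were used on build Rnor_6.0, with no roles given. Use of strand in counting is not stated. The authors' FPKM scale counts by column total and transcript length. The authors' deposited log2 fold changes and q-values were not used.

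With R 4.3.3, the rounded counts of all 18 libraries entered an edgeR 4.0.16 quasi-likelihood fit. Libraries were scaled by TMM, filtered by filterByExpr with the 6 groups and given 1 mean per group. This kept 14870 genes and gave a common biological coefficient of variation of 6.90% on 12 residual degrees of freedom. P-values are two-sided and adjusted by the Benjamini-Hochberg method over all genes tested. Intervals are 95%, from the standard error and 12 degrees of freedom. A joint F test compared the 3 control groups. Alternatives were DESeq2 1.42.0, limma 3.58.1 on log2(FPKM + 1) and log2(FPKM + 0.1), other size factors, no filter, only the libraries compared, a replicate block and leaving out each library. The fits were tested on simulated data. Intervals cover the spread between libraries that the fit estimates, and limits for a count of 0 cover counting error only. Depth was 15697177 to 17658137 counts per library.

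The chemokines and the gene lists were chosen with earlier results of these data known. Named genes are the 9 chemokines, the ligands, receptors and proteases of the lists, up to 3 called genes of each other list with the smallest p in each comparison, and the 2 genes nearest to each chemokine. A gene that meets this rule is not reported here. Cell markers and Ifnb1 are given whatever their result. Promoter windows are from RefSeq, build GRCr8. Protein sequences and Cxcr1 were not used here.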

Additional observations from a re-analysis of the deposited data

Results flagged for a closer look

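The results below stand out because the response of a chemokine to a sORF differed from its response to another sORF in edgeR's test of the difference (adjusted p under 0.05). Values are differences of log2 fold changes, each fold change being taken against the sORF's own control virus.

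For the sORF7 response minus the sORF6 response, the difference was 4.56 for Cxcl2, 3.65 for Cxcl10, 3.54 for Cxcl3, 2.36 for Cxcl1, 0.99 for Cxcl16 and 0.76 for Cx3cl1. Each of these 6 genes was lower with sORF6 and higher with sORF7 than in the matching controls.

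For the sORF8 response minus the sORF6 response, it was 3.92 for Cxcl2, 3.57 for Cxcl3, 2.43 for Cxcl1, 1.73 for Cxcl10, 0.75 for Cxcl16 and 0.47 for Cx3cl1. Of these, Cxcl1 and Cxcl3 were called higher with sORF8, and the other 4 were not called with it.

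For the sORF8 response minus the sORF7 response, it was -1.92 for Cxcl10 and -0.28 for Cx3cl1. Both were called higher with sORF7 and were not called with sORF8, and for both genes the levels also differed between the control groups.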

How the results depend on the processing

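Over 949 recomputed chemokine results, 914 kept their side of the threshold, 24 lost the call and 11 gained it. Of those called in the main fit or the alternative, 0 reversed direction, and the joint test of the controls has no direction. Results called in neither fit could change sign, as that of Cxcl10 with sORF8 did (log2 fold change -0.33 to 0.05 over the alternatives). The number of chemokine genes called kept within 1.5 times its main value under each alternative, except on leaving out single libraries: 1 to 2 for sORF8 and 2 to 4 between the control groups. Over single libraries left out it was 6 to 6 for sORF6 and 4 to 6 for sORF7. Over all genes, leaving out a library gave 368 to 529 calls for sORF6, 680 to 955 for sORF7 and 265 to 387 for sORF8. Fitting only the libraries compared gave 318 calls for sORF6 and 627 for sORF7, against 572 and 1156 in the main fit. For sORF8 it gave 815 calls, against 558 in the main fit. These fits had fewer libraries to estimate the spread, and the cause of the changes was not tested. Without the 2 control libraries farthest from their group means (sORF6 control replicate 2 and sORF7 control replicate 1, chosen after seeing the data), 963 genes were called for sORF8 and the cause was not tested. In that fit Cxcl16 with sORF7 lost its call (adjusted p = 0.0572). With limma on log2(FPKM + 0.1), Cxcl1 (0.0508) and Cxcl2 (0.0547) lost theirs with sORF7, and between the controls Cxcl1 lost its call by limma and Cxcl11 by DESeq2 (0.0559). On log2(FPKM + 1), whose pseudocount shrinks low levels, the sORF6 change of Cxcl2 was -1.37 and that of Cxcl3 -1.80. Depth limits Cxcl2, Cxcl11 and Cxcl9 most, with 0 to 103, 12 to 60 and 0 to 6 counts per library.

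Same-numbered libraries showed no clear shared deviation (correlations of 0.08, 0.02 and 0.07 for sORF6, 0.08, 0.08 and -0.05 for sORF7, -0.05, 0.12 and -0.01 for sORF8). Libraries paired by design need not deviate together, so this does not decide whether the numbers pair the samples, which the labels do not say. With a replicate block, 6, 6 and 2 chemokine genes were called for sORF6, sORF7 and sORF8, and 522, 1022 and 459 of all genes. The block gave 6, 6 and 2 for the differences between responses and 4 between the controls. Among the calls named in the text the block ended those of Cxcl13, Tnfaip3 and Lyz2 with sORF7 (adjusted p = 0.0552, 0.0561 and 0.0634) and that of Mmp9 with sORF8 (0.0530).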
